A study of Ambystoma mexicanum with 12 samples.

Results

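Complement is a cascade of plasma proteins that coats microbes and dying cells and calls in phagocytes. C4 is a large protein with an internal thioester bond. When a protease of the classical or lectin pathway cleaves it, it attaches to nearby surfaces and joins C2 in the enzyme that cleaves C3. Ficolins are secreted lectins with a collagen-like stalk and a fibrinogen-like head that binds sugars, and they start the lectin pathway together with the MASP proteases. In mammals most plasma C4 comes from the liver, and macrophages and other cells also make it.

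Of the 36917 genes in the count table of axolotl limb blastema mesenchyme, 3 loci are described here. MSTRG.15066 and MSTRG.27784 were both named C4 by the study's protein matches, and MSTRG.6145 was matched there to a ficolin of the Komodo dragon (FCNV1_VARKO). All 3 were taken from the study's lists of genes that differed between treatments. Their difference between treatments is therefore what chose them, and it is given as a description, with no test.

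The animals were albino axolotls whose forelimbs had been cut through the middle of the zeugopod. After 24 h they were kept for 5 days in 25 nM Am580, a retinoid that acts preferentially on retinoic acid receptor alpha, or in the vehicle DMSO, and the blastemas were collected 24 h later, on day 7. Each library is the poly-A RNA of 1 right blastema without its epidermis, and each treatment has 6 libraries, numbered 1 to 6. The Am580 blastemas came from the animals whose other limb showed the most duplication, while the animals of the DMSO group had none, so the choice of animals and the treatment cannot be told apart. Total counts ranged from 27226012 to 43793138 per library, and a count of 0 allows up to 3 counts, or 0.0637 to 0.111 CPM (counts relative to library size), for counting error only. Levels below are CPM, scaled with TMM factors, which adjust for the composition of each library. Fold changes are Am580 over DMSO from edgeR's quasi-likelihood fit, with their standard error (SE).

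MSTRG.15066, the longer C4 locus, lies on scaffold AMEXG_0030004170 of the AmexG_v3.0.0 assembly, from base 5310052 to base 5539876 on the minus strand. It holds the reference transcript c4a.L, with 18 exons over 3282 bases, and an assembled transcript with 26 exons over 4617 bases. The exons of both cover 5174 bases. MSTRG.27784 lies on scaffold AMEXG_0030091494 from base 1 to base 21159, on the plus strand, and is the only gene the assembly lists there. It has a single reference transcript, named only "complement", with 8 exons over 551 bases. The reference numbers of these transcripts of both C4 loci are consecutive. Whether the short scaffold carries a second C4 gene or a piece of the first was not tested. MSTRG.6145, the ficolin-like locus, spans bases 8824912 to 9008839 of scaffold AMEXG_0030001278 on the plus strand. Its 5 transcripts, 1 of them from the reference annotation (LOC100552635), cover 2788 bases of exon. The counts are summed over the transcripts of a gene, so the level of a single transcript is not given.

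In the DMSO libraries MSTRG.15066 was near the limit of detection, at 0.266 CPM in the lowest library, a median of 0.509 CPM and 0.709 CPM in the highest. These are 9 to 27 counts per library. In the Am580 libraries the lowest level was 3.40 CPM, the median 4.94 CPM and the highest 14.8 CPM, or 146 to 568 counts. The groups did not overlap, and the lowest Am580 library was 4.79 times the highest DMSO library. Am580 replicates 1 and 6 stood far above the others, at 14.8 and 13.8 CPM, while the other 4 lay between 3.40 and 5.70 CPM. The means were 0.521 ± 0.178 CPM in DMSO and 7.65 ± 5.21 CPM in Am580 (SD, n = 6 each). The fitted log2 fold change was 3.87 (SE 0.46), a 14.6-fold higher level, and ranked 47 among the 25879 genes tested. When single libraries were dropped in turn, the log2 fold change stayed between 3.58 and 4.03.

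MSTRG.27784 was barely covered in DMSO. Replicate 3 had 0 counts, which allows up to 0.0888 CPM, and the highest library, replicate 5, had 10 counts, or 0.263 CPM. The DMSO median was 0.0872 CPM. The Am580 libraries ran from 0.361 CPM through a median of 0.538 CPM to 1.14 CPM in replicate 6, on 17 to 47 counts each. The groups did not overlap here either, but the gap was small, with the lowest Am580 library 1.37 times the highest DMSO library. Only 1 DMSO library reached 10 counts, so this gene entered the test through its Am580 libraries, and a gene that enters in that way had to differ. Its mean levels were 0.0988 ± 0.0919 CPM in DMSO and 0.634 ± 0.272 CPM in Am580 (SD, n = 6 each). The fitted log2 fold change of 2.60 (SE 0.53) corresponds to a 6.05-fold higher level, and it lay between 2.34 and 3.18 when single libraries were dropped.

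MSTRG.6145 was the best covered of the 3 loci, with 175 to 300 counts in each DMSO library and 717 to 2828 counts in each Am580 library. Its DMSO levels ran from 4.60 CPM through a median of 6.74 CPM to 10.6 CPM, and its Am580 levels from 18.2 CPM through a median of 39.3 CPM to 68.8 CPM. The groups did not overlap. Within Am580, replicates 3 and 4 were lowest, at 18.2 and 19.2 CPM, and replicate 6 was highest. Replicate 3 of Am580 was thus the third highest library for MSTRG.15066 and the lowest for MSTRG.6145, while replicate 6 was high for all 3 loci. The means were 7.06 ± 2.03 CPM in DMSO and 38.1 ± 18.6 CPM in Am580 (SD, n = 6 each). The fitted log2 fold change was 2.43 (SE 0.32), or 5.40-fold, and between 2.19 and 2.58 when single libraries were dropped.

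All 3 loci passed the filter on low counts and had no overlap between treatments, with the Am580 libraries higher. Among all genes tested this separation was found for 3.97%, a background from which nothing can be read here because the loci were chosen by this contrast. Their levels also varied more between libraries of 1 treatment than those of most genes. The SD of log2 CPM within a treatment was 0.741 for MSTRG.15066, 0.714 for MSTRG.27784 and 0.595 for MSTRG.6145, at the 88.1, 87.2 and 81.7 percentile of the genes tested. These genes were not matched on level. By mean CPM the 3 loci stood, in the same order, at the 45.6, 4.41 and 76.4 percentile. Counting error widens this SD at low counts, and its part was not tested. For MSTRG.15066 this spread was larger in Am580 (SD 0.929) than in DMSO (0.486), and for MSTRG.27784 it was larger in DMSO (0.871, with counts of 0 to 10) than in Am580 (0.511).

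**Figure D1:**
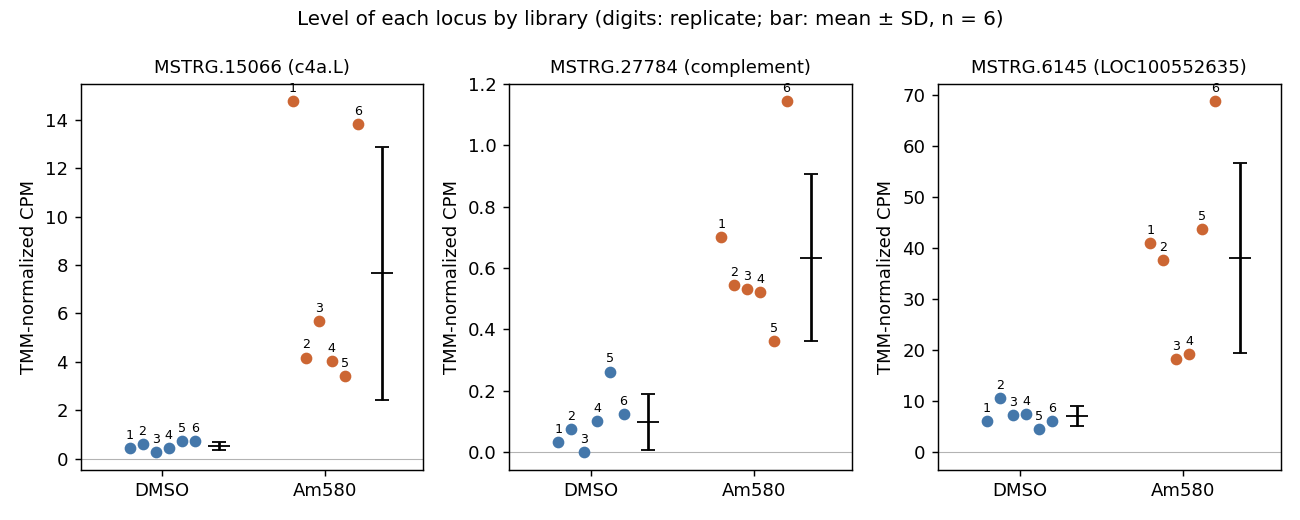
Level of the 3 loci in each library as TMM-normalized CPM, with DMSO libraries in blue and Am580 libraries in orange, the digit giving the replicate and the bar the mean ± SD of 6 libraries. For MSTRG.15066 the Am580 libraries split into replicates 1 and 6, at 14.8 and 13.8 CPM, and 4 libraries between 3.40 and 5.70 CPM, and in all 3 panels every Am580 library lies above every DMSO library.

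Compared per kilobase of exon, the ficolin-like locus was the most expressed of the 3 in both treatments. In DMSO it lay at 1.65 to 3.80 CPM per kilobase, above MSTRG.27784 (0 to 0.477) and MSTRG.15066 (0.0515 to 0.137), whose ranges overlapped. In Am580 it lay at 6.51 to 24.7 CPM per kilobase, again above MSTRG.15066 (0.656 to 2.85) and MSTRG.27784 (0.655 to 2.08), whose ranges overlapped, with MSTRG.15066 above every MSTRG.27784 library in Am580 replicates 1 and 6. By this measure the mean level of MSTRG.6145 stood at the 50.4 percentile of tested genes in DMSO and at the 85.1 percentile in Am580. MSTRG.15066 stood at the 1.76 percentile in DMSO and the 35.7 percentile in Am580, and MSTRG.27784 at the 4.0 and 28.1 percentile, so that both C4 loci were below the middle of the tested genes in both treatments.

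The C4 loci were next compared with each other inside each treatment, so that the difference between treatments does not enter. Libraries with more MSTRG.15066 tended to have more MSTRG.27784. Over the 6 DMSO libraries Pearson's r of log2 CPM was 0.875 (exact permutation test, two-sided, p = 0.0306) and Spearman's rho was 0.886 (p = 0.0333, exact permutation). Over the 6 Am580 libraries r was 0.855 (exact permutation p = 0.0125) and rho again 0.886 (exact permutation p = 0.0333). After Benjamini-Hochberg adjustment over the 10 relations computed, these became 0.102 for r and 0.111 for rho in both treatments (exact permutation), so neither passed 0.05. Without the 2 libraries farthest from the median of MSTRG.15066, r was 0.773 in DMSO and 0.690 in Am580. In DMSO the relation rests on 0 to 10 counts per library of MSTRG.27784. The summed level per kilobase of MSTRG.15066 was 0.532 times that of MSTRG.27784 in DMSO and 1.26 times in Am580, and the single Am580 libraries gave ratios of 0.818 to 2.24.

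Between the C4 loci and the ficolin-like locus no relation passed the test. For MSTRG.15066 with MSTRG.6145, r was -0.27 in DMSO and 0.499 in Am580 (exact permutation, adjusted p = 0.698 and 0.574, n = 6 each), and the Am580 value turned to -0.72 without replicates 1 and 6. For MSTRG.27784 with MSTRG.6145, r was -0.46 in DMSO and 0.515 in Am580 (exact permutation, adjusted p = 0.574 in both, n = 6 each), and the Am580 value rose to 0.710 without replicates 5 and 6. With 6 libraries, none of these relations was distinguishable from 0, and the values do not show that there is none.

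**Figure D2:**
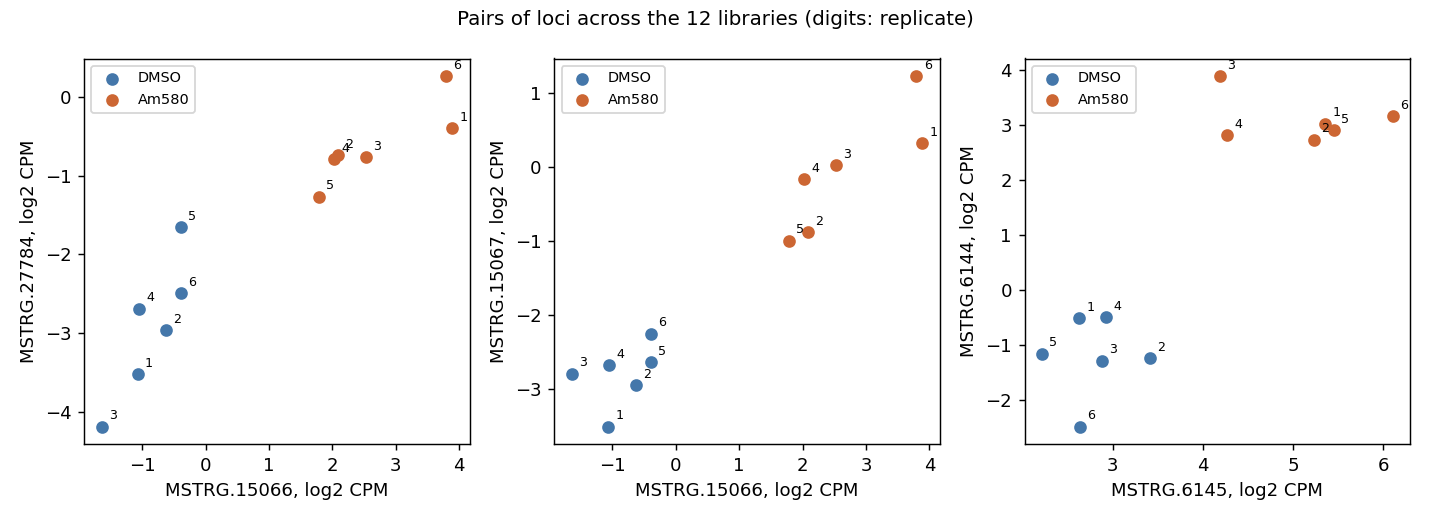
Log2 CPM of MSTRG.27784 against MSTRG.15066, of MSTRG.15067 against MSTRG.15066 and of MSTRG.6144 against MSTRG.6145, with 1 point per library, blue for DMSO and orange for Am580, the digit giving the replicate. In the first panel r was 0.875 among the DMSO and 0.855 among the Am580 points, and in the third panel Am580 replicate 3 is lowest of its treatment on the horizontal axis and highest on the vertical axis.

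The genes beside the loci were examined next, taking the 5 nearest on each side where the scaffold had that many. Of 16 such genes, 10 by MSTRG.6145 and 6 by MSTRG.15066, 14 could be tested. There, 7 (50%) were called higher in Am580 at an adjusted p under 0.05 with edgeR's quasi-likelihood test and 0 lower, against 6.93% called higher and 7.21% called lower among all genes tested. Their median log2 fold change was 0.67, and that of all tested genes was 0.00432. An unadjusted p under 0.05 was found for 10 of the 14, and for 6659 of all 25879 genes tested. In 4 of the 14 all Am580 libraries lay above all DMSO libraries (3.97% of all genes tested). When single libraries were dropped, 5 to 7 were called higher, and MSTRG.15067 was not tested in the fits without an Am580 library. MSTRG.6144 and MSTRG.15067 are among the genes the study listed as changed, so they are not independent evidence in this count. Without them, 5 of 12 (41.7%) were called higher and 2 had no overlap, with a median log2 fold change of 0.57. Neighbouring genes on a scaffold can belong to 1 transcribed locus that the assembly split, and no test of that was made. The spans of some neighbours also overlap. MSTRG.15063, MSTRG.15064 and MSTRG.15065 overlap MSTRG.15062 on the opposite strand, and MSTRG.15064 and MSTRG.15065 overlap each other on the same strand. MSTRG.6140 overlaps MSTRG.6141 on the opposite strand. The shares above therefore do not count separate places on the scaffolds.

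By the long C4 locus, the last gene the assembly lists on its scaffold was MSTRG.15067, upstream of the locus in the direction of transcription. It lies on the same strand, 56862 bases away at bases 5596738 to 5676122, and has 7 exons over 977 bases and no reference name. The study matched it to cobra venom factor, a snake relative of complement C3. It was counted 1 to 5 times in each DMSO library (0.0324 to 0.154 CPM, median 0.0946) and 17 to 94 times in each Am580 library (0.446 to 2.29 CPM, median 0.899). The groups did not overlap, and replicate 6 was again the highest Am580 library. Its log2 fold change was 3.42 (SE 0.47). No DMSO library reached 10 counts, so it too entered the test only through Am580 and had to differ, and no p is given for it. When any 1 Am580 library was left out it did not pass the filter. Per kilobase, MSTRG.15066 had 1.04 times the level of MSTRG.15067 in DMSO and 1.36 times in Am580. Within Am580 the levels of this pair gave r = 0.859 and rho = 0.886 (exact permutation, adjusted p = 0.102 and 0.111, n = 6), and within DMSO r = 0.414 and rho = 0.714 (exact permutation, adjusted p = 0.605 and 0.340, n = 6).

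On the other side of MSTRG.15066, 2 genes with smaller differences were called. MSTRG.15063, 192441 bases away and without a reference name, was at 9.90 ± 3.17 CPM in DMSO and 20.0 ± 4.13 CPM in Am580 (SD, n = 6 each), a fitted log2 ratio of 1.02 (SE 0.21, adjusted p = 0.00523, edgeR quasi-likelihood). MSTRG.15065 (mRNA01003), 19825 bases away, was at 14.4 ± 4.17 and 24.6 ± 4.12 CPM (SD, n = 6 each), a fitted log2 ratio of 0.77 (SE 0.19, adjusted p = 0.0151, edgeR quasi-likelihood). MSTRG.15064, MSTRG.15062 and MSTRG.15061 were not called, with log2 fold changes of 0.58, 0.76 and 0.33, although DESeq2 called MSTRG.15062 (0.77, adjusted p = 0.0369). Across the whole scaffold, 4 of the 20 other genes tested were higher and 0 lower, with a median log2 fold change of 0.25. Of all genes tested, 6.93% were called higher and 7.21% lower. The 4 include MSTRG.15067, which had to differ, so it is not independent evidence in this count. In mammals C4 lies among immune genes of the major histocompatibility complex, beside the matrix protein gene TNXB. TNXB is on this axolotl scaffold too, 4789804 bases from MSTRG.15066, with a log2 fold change of -0.92 (adjusted p = 0.218, edgeR quasi-likelihood), and so is AGPAT1, 515423 bases away, at -0.24 (adjusted p = 0.270, edgeR quasi-likelihood).

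By the ficolin-like locus, 3 neighbours were called without overlap between treatments. MSTRG.6144, a single exon of 2774 bases that starts at base 8767283 and ends 54856 bases before MSTRG.6145 on the same strand, was matched by the study to a snake ficolin (FCNV4_CERRY). Its level ran from 0.123 CPM through a median of 0.382 CPM to 0.653 CPM in DMSO, and from 6.60 CPM through 7.76 CPM to 14.8 CPM in Am580. Am580 replicate 3, the lowest library of its treatment for MSTRG.6145, was the highest for MSTRG.6144. The log2 fold change was 4.36 (SE 0.34). The study listed this gene as changed by the same contrast, so no p is given for it. MSTRG.6143, 150280 bases before MSTRG.6145 on the same strand, has 6 exons over 740 bases and no reference name. It ran from 0.278 CPM through 0.389 CPM to 0.487 CPM in DMSO and from 5.07 CPM through 9.29 CPM to 11.1 CPM in Am580, with a fitted log2 ratio of 4.38 (SE 0.24, adjusted p = 2.38e-07, edgeR quasi-likelihood). Both of these genes had larger log2 fold changes than MSTRG.6145 itself, although the difference between them was not tested.

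The third, MSTRG.6147 (LOC106675560), lies inside the span of MSTRG.6145 on the same strand but shares 0 exon bases with it. It ran from 0.879 CPM through 1.93 CPM to 3.15 CPM in DMSO and from 4.39 CPM through 11.3 CPM to 14.5 CPM in Am580. Its log2 fold change, 2.46 (SE 0.35, adjusted p = 0.00034, edgeR quasi-likelihood), was close to the 2.43 of the gene that encloses it. MSTRG.6146, on the opposite strand, has all its 771 exon bases inside exons of MSTRG.6145. It was counted 13 times in the 6 DMSO libraries and 85 times in the 6 Am580 libraries and was too low to be tested. The library kit keeps strand and counting was strand specific. Whether these counts are leakage from the opposite strand was not tested.

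MSTRG.6142 (LOC101944392) was at 228 ± 26.9 CPM in DMSO and 297 ± 42.5 CPM in Am580 (SD, n = 6 each), a fitted log2 ratio of 0.38 (SE 0.11, adjusted p = 0.0302, edgeR quasi-likelihood). This call was kept in only 5 of the 12 fits without 1 library, where the adjusted p reached 0.0687. The tyrosine kinase gene fgr, at 0.56 (adjusted p = 0.125, edgeR quasi-likelihood), was called only without Am580 replicate 1 (MSTRG.6141, adjusted p = 0.0206), and not called were MSTRG.6140, MSTRG.6148 and MSTRG.6149. Across the scaffold 4 of the 18 other genes tested were higher and 0 lower, with a median log2 fold change of 0.16. Of all genes tested, 6.93% were called higher and 7.21% lower. The 4 include MSTRG.6144, which the study listed as changed, so it is not independent evidence in this count. FCN3, a ficolin gene named by the reference annotation, is 5918752 bases from MSTRG.6145 on the same scaffold. It was at 8.38 ± 4.10 CPM in DMSO and 6.55 ± 1.64 CPM in Am580 (SD, n = 6 each), with a fitted log2 ratio of -0.36 (SE 0.30, adjusted p = 0.527, edgeR quasi-likelihood). All its Am580 libraries, at 4.83 to 8.78 CPM, were within the range of its DMSO libraries, at 3.67 to 13.2 CPM.

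For MSTRG.6145 with MSTRG.6144, r was 0.0845 in DMSO and -0.36 in Am580 (exact permutation, adjusted p = 0.913 and 0.679, n = 6 each). Without the 2 libraries farthest from the median of MSTRG.6145 these became 0.389 and 0.831, the latter without Am580 replicates 3 and 4, so the values do not show whether the levels are related. Per kilobase, MSTRG.6145 had 16.0 times the level of MSTRG.6144 in DMSO and 4.34 times in Am580.

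**Figure D3:**
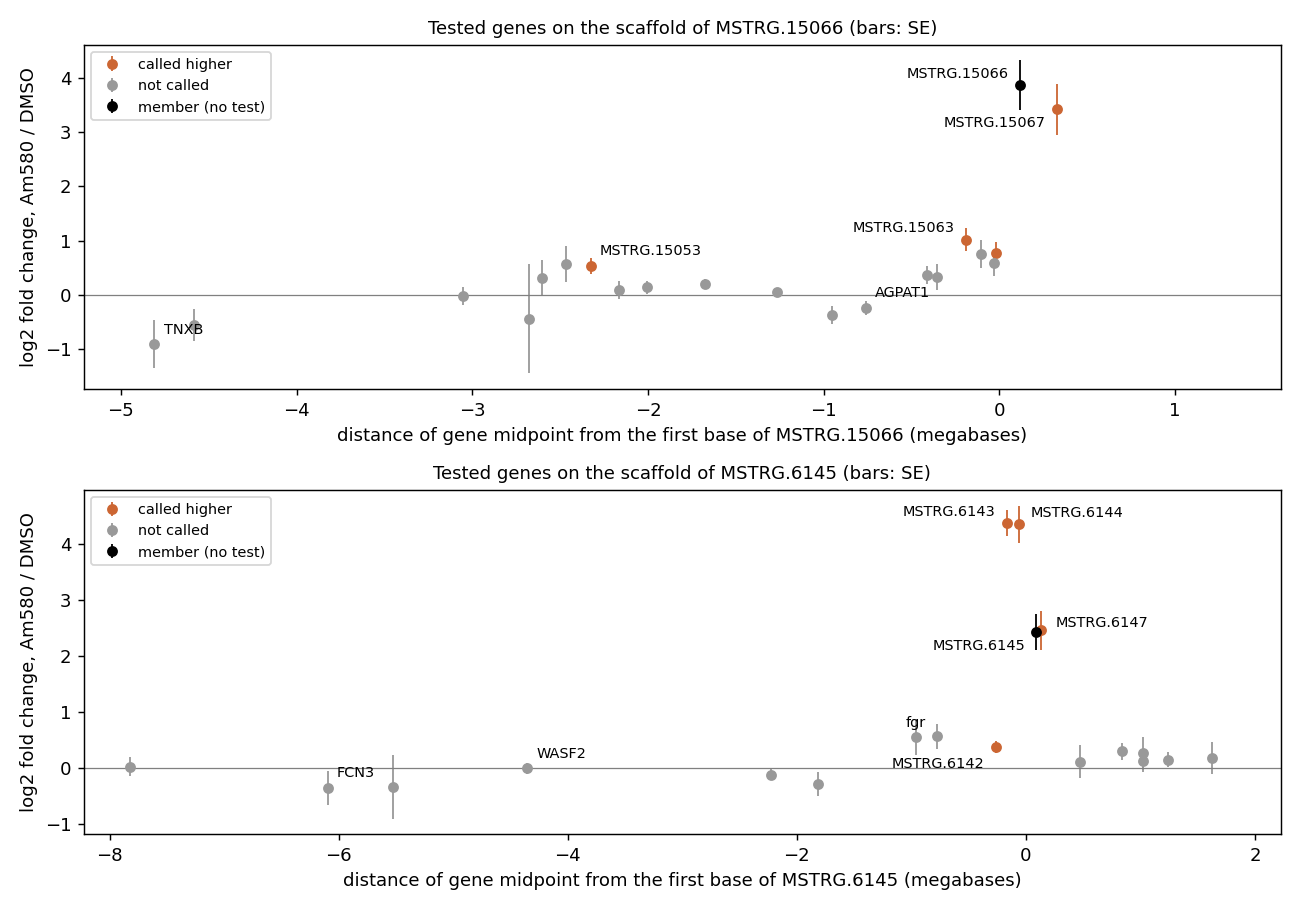
Log2 fold change (Am580 over DMSO, bars SE) of every tested gene on the scaffolds of MSTRG.15066 and MSTRG.6145 against the distance of its midpoint from the first base of the locus in megabases, orange where called higher, grey where not called, black for the locus itself. The large values beside the loci are 3.42 for MSTRG.15067 and 4.36, 4.38 and 2.46 for MSTRG.6144, MSTRG.6143 and MSTRG.6147. The last lies inside the span of MSTRG.6145. The study listed MSTRG.15067 and MSTRG.6144 as changed by this contrast, and MSTRG.15067 entered the test only through Am580. Their large values are therefore not a finding. FCN3, at -0.36, lies 5918752 bases from MSTRG.6145.

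The rest of the complement system was then read from a list of 58 gene symbols, of which 32 are carried by a gene of the assembly, together with genes named only "complement". Without the 3 loci the list held 48 genes, and 29 of them could be tested. In Am580, 8 (27.6%) were called higher and 2 (6.9%) lower by edgeR's quasi-likelihood test, beside 6.93% and 7.21% of all genes tested. The median log2 fold change was 0.45. The count of higher genes fell to 4 without DMSO replicate 2 or DMSO replicate 4 and to 5 without Am580 replicate 6. In these 3 fits the higher calls over all genes fell too, from 1793 to 1561, 1511 and 1479 in the same order. In 3 genes all Am580 libraries were above all DMSO libraries and in 2 all were below, against 3.97% and 4.63% of all genes tested. The counts by role that follow each cover few genes. Beside them too, 6.93% of all genes tested were called higher and 7.21% lower.

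In the classical pathway, where C4 acts, 0 of 3 tested genes passed the adjusted threshold, and 1 passed 0.05 before adjustment. C1QA, C1QB and C1QC were carried by no assembly name and are not in this count. Over all genes tested, 6659 of 25879 passed 0.05 before adjustment. C1S and C1R, the proteases of the C1 complex of which C1S cleaves C4, had log2 fold changes of 0.15 and 0.50 (adjusted p = 0.888 and 0.598, edgeR quasi-likelihood). C2, the partner of C4 in the enzyme that cleaves C3, had one of 0.80 (adjusted p = 0.0974, edgeR quasi-likelihood), with levels of 3.30 ± 0.979 CPM in DMSO and 5.75 ± 2.63 CPM in Am580 (SD, n = 6 each). C2 (MSTRG.10944) was called without Am580 replicate 4 (adjusted p = 0.0325, edgeR quasi-likelihood) and by DESeq2 (adjusted p = 0.0473).

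Of the 4 tested genes that the list puts with the lectin pathway, where ficolins act, 2 were higher. They are COLEC12, which is a membrane receptor, and MASP1. MASP2 and FCN3 were not called. The gene named SFTPD was too low to be tested. Another gene, which the study matched to SFTPD and lists as higher, is not in this count, nor is the ficolin match MSTRG.6144. COLEC12, a membrane collectin and scavenger receptor, ran from 67.2 CPM through a median of 120 CPM to 159 CPM in DMSO and from 259 CPM through 341 CPM to 462 CPM in Am580. The groups did not overlap, and its log2 fold change was 1.56 (SE 0.19, adjusted p = 0.000132, edgeR quasi-likelihood). MASP1, a protease that circulates bound to ficolins and collectins, was at 0.968 ± 0.530 CPM in DMSO and 2.55 ± 1.43 CPM in Am580 (SD, n = 6 each), a fitted log2 ratio of 1.39 (SE 0.39, adjusted p = 0.0312, edgeR quasi-likelihood). The MASP1 call was kept in 5 of the 12 fits without 1 library, with an adjusted p up to 0.074. MASP2, the protease of this pathway that cleaves C4, had a log2 fold change of -0.53 (adjusted p = 0.671, edgeR quasi-likelihood), and DMSO replicate 1 had only 0.0324 CPM of it while the other DMSO libraries had 4.84 to 12.6 CPM.

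For C3, the protein on which the pathways meet, and for the alternative pathway, 0 of 4 tested genes passed the adjusted threshold. Before adjustment 2 passed 0.05, beside 6659 of all 25879 genes tested. No assembly name carries CFB, so it is not among the 4. The gene named C3 has 1295 bases of exon in 6 blocks, and whether it is the whole C3 gene was not tested. It had a log2 fold change of 0.75 (adjusted p = 0.256, edgeR quasi-likelihood) at 0.781 CPM in DMSO and 1.32 CPM in Am580. The 2 genes carrying the name of properdin, CFP, which stabilizes the C3-cleaving enzyme, had 1.49 and 0.77 (adjusted p = 0.0908 and 0.118, edgeR quasi-likelihood). The first, MSTRG.12446, was called without DMSO replicate 1, at 2.42 (adjusted p = 0.000303, edgeR quasi-likelihood), and by limma-voom and DESeq2. Factor D, CFD (MSTRG.5044), had -0.93 (adjusted p = 0.226, edgeR quasi-likelihood) and was called lower without DMSO replicate 6, at -1.18 (adjusted p = 0.00334, edgeR quasi-likelihood).

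Of the terminal components, which build the pore of the membrane attack complex, 2 of 3 tested genes rose. C7 was at 7.33 ± 0.147 CPM in DMSO and 11.8 ± 1.16 CPM in Am580 (SD, n = 6 each), without overlap, a fitted log2 ratio of 0.68 (SE 0.08, adjusted p = 7.08e-05, edgeR quasi-likelihood). C9 was at 15.9 ± 5.11 and 27.4 ± 8.27 CPM (SD, n = 6 each), a fitted log2 ratio of 0.78 (SE 0.23, adjusted p = 0.0391, edgeR quasi-likelihood), a call kept in 4 of the 12 fits without 1 library, where the adjusted p reached 0.0859. C5 (MSTRG.6060) had a log2 fold change of -0.78 (adjusted p = 0.128, edgeR quasi-likelihood) and was called lower without DMSO replicate 3 (adjusted p = 0.0361). The 3 genes named C6 were too low to be tested. Of these the best covered had 0 to 1 counts in each DMSO library and 3 to 11 in each Am580 library, 3 against 38 in all.

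Among the regulators, 2 of 5 tested genes rose. Clusterin, CLU, which binds terminal complexes and serves as a chaperone, was at 90.5 ± 13.5 CPM in DMSO and 152 ± 18.8 CPM in Am580 (SD, n = 6 each), without overlap, a fitted log2 ratio of 0.75 (SE 0.11, adjusted p = 0.000597, edgeR quasi-likelihood). Factor I, CFI, the protease that inactivates C4b and C3b, was at 1.39 ± 0.647 and 4.04 ± 2.65 CPM (SD, n = 6 each), a fitted log2 ratio of 1.54 (SE 0.42, adjusted p = 0.0280, edgeR quasi-likelihood). The CFI call was lost without DMSO replicate 2, without DMSO replicate 4 and without Am580 replicate 6, with an adjusted p of up to 0.0634. SERPING1, the C1 inhibitor, and VTN, vitronectin, had log2 fold changes of -0.40 and -0.18 (adjusted p = 0.578 and 0.804, edgeR quasi-likelihood). CSMD2 had 1.16 (SE 0.53, adjusted p = 0.191, edgeR quasi-likelihood), at means of 0.220 CPM in DMSO and 0.480 CPM in Am580. It was tested in only 6 of the 12 fits without 1 library.

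Among receptors, the list was divided, with 1 of 4 tested genes higher and 2 lower. ITGAX was carried by no assembly name and is not in this count, although the study lists it as higher. ITGB2, the shared beta chain of the leukocyte integrins that include complement receptor 3, fell from 549 ± 79.8 CPM to 321 ± 69.2 CPM (SD, n = 6 each), without overlap, a fitted log2 ratio of -0.77 (SE 0.14, adjusted p = 0.00211, edgeR quasi-likelihood). C1QBP, a mitochondrial protein that also binds C1q, fell from 137 ± 14.8 to 87.5 ± 9.08 CPM (SD, n = 6 each), without overlap, a fitted log2 ratio of -0.65 (SE 0.09, adjusted p = 0.000356, edgeR quasi-likelihood). CD93, a surface lectin of endothelium and myeloid cells, had 0.45 (SE 0.13, adjusted p = 0.0380, edgeR quasi-likelihood), a call kept in 3 of the 12 fits without 1 library, where the adjusted p reached 0.0827. C5AR1, the receptor for the C5a fragment, had 0.20 (adjusted p = 0.769, edgeR quasi-likelihood).

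Among the thioester relatives of C4, A2M and CD109, 0 of 3 tested genes passed 0.05, before or after adjustment. The genes named only "complement" had 1 of 3 called. MSTRG.7166 was at 1.76 ± 1.04 CPM in DMSO and 6.25 ± 2.91 CPM in Am580 (SD, n = 6 each), a fitted log2 ratio of 1.83 (SE 0.46, adjusted p = 0.0171, edgeR quasi-likelihood), and the files do not say which component it is. The others were MSTRG.10945 at 1.19 (adjusted p = 0.226, edgeR quasi-likelihood) and MSTRG.15925 at 0.15 (adjusted p = 0.899, edgeR quasi-likelihood). In this fit none of the 29 tested genes of the list had a log2 fold change as large as those of the 3 loci. The loci were chosen by this contrast, so nothing can be read from that. By symbol the list also misses MSTRG.6144 and MSTRG.15067, at 4.36 and 3.42. The study matched them to a ficolin and to cobra venom factor. Without DMSO replicate 1 the CFP gene MSTRG.12446, at 2.42, was level with MSTRG.6145, at 2.40.

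**Figure D4:**
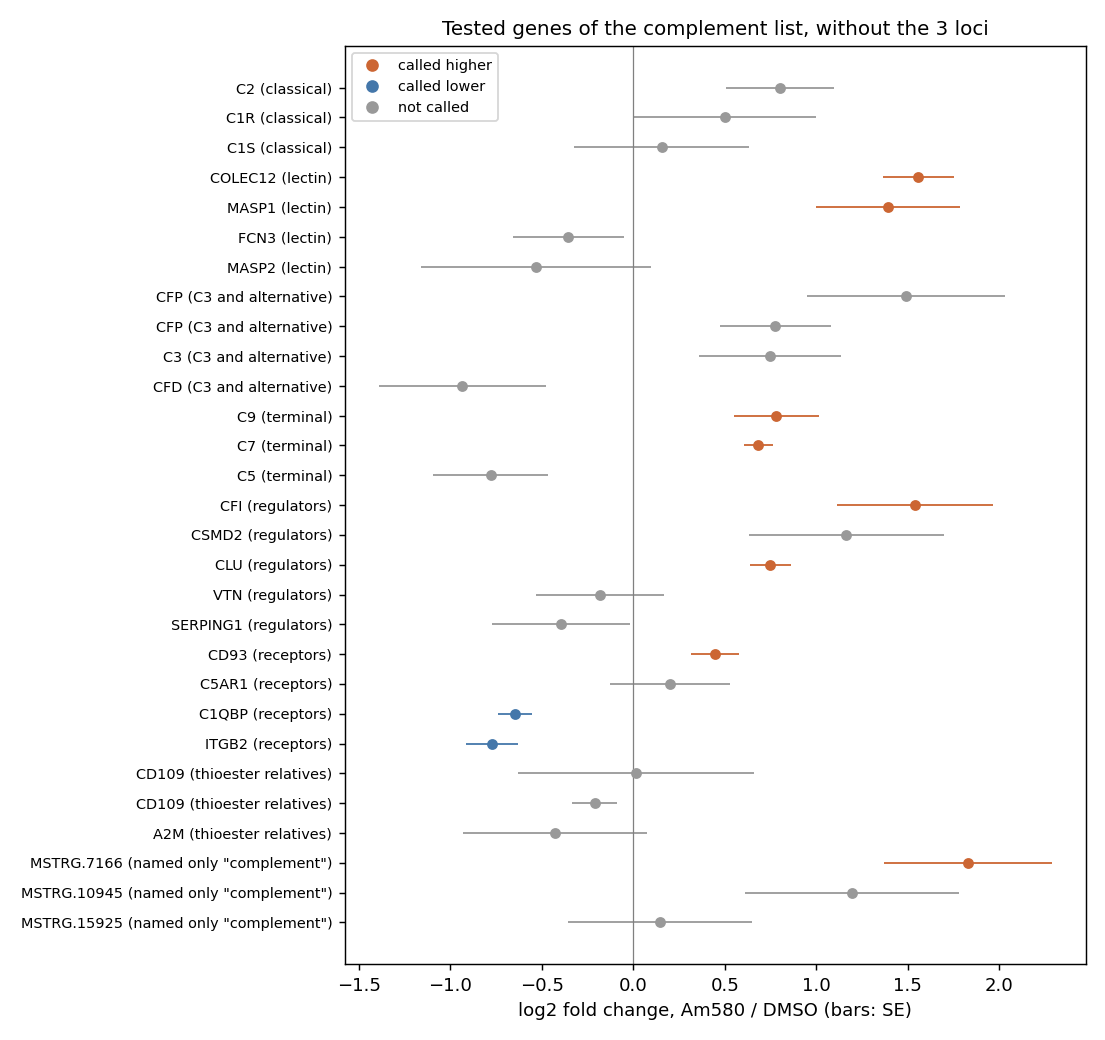
Log2 fold change (Am580 over DMSO, bars SE) of the 29 tested genes of the complement list without the 3 loci, grouped by their role, orange where called higher, blue where called lower and grey where not called. The 8 higher genes lie between 0.45 and 1.83, and ITGB2 and C1QBP are lower at -0.77 and -0.65. The 3 loci, at 2.43 to 3.87, were chosen by this contrast, so their larger values are not a finding.

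In RNA from whole tissue, more cells of a type and more RNA per cell cannot be told apart. The levels of genes that mark several cell types were therefore read beside the loci. Of 7 genes matched to macrophage markers, 2 were called higher (MARCO and ADGRE1) and 3 lower (CSF1R, 1 of 2 genes named CD68, and SPI1). Beside this and the counts that follow, 6.93% of all genes tested were called higher and 7.21% lower. The summed level of the macrophage genes was lower in Am580, at 798 to 1210 CPM, than in DMSO, at 1333 to 1841 CPM. MRC1, also a marker on the macrophage list, was carried by no assembly name and enters neither count nor sum. The study lists it as higher. Of 7 genes matched to hepatocyte markers the summed level was 0.278 to 1.07 CPM in DMSO and 0.276 to 1.46 CPM in Am580, and the transferrin gene TF was at 0 in every library. The 2 genes matched to neutrophil markers, CSF3R and CEBPE, summed to 23.5 to 147 CPM in DMSO and 46.5 to 122 CPM in Am580, and 0 of 2 were called. Endothelial markers had 0 of 6 genes called and summed to 130 to 259 and 135 to 222 CPM. Epidermal markers, of which 1 of 5 tested genes (PKP1) was lower, summed to 17.1 to 117 CPM in DMSO and 8.82 to 27.3 CPM in Am580, and erythroid markers, with 0 of 3 called, to 14.6 to 134 and 21.9 to 98.3 CPM. The connective tissue markers that define the mesenchyme, PRRX1, COL3A1 and PDGFRA among them, were present in every library, and 1 of 8 (VIM) was lower. The part of these cell types in the levels of the 3 loci was not tested.

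Finally, the genes whose levels followed each locus most closely were found by correlating log2 CPM, after subtracting the mean of each treatment, over the 12 libraries and the 20381 tested genes whose mean was at least 1 CPM. For MSTRG.15066 these were arc3 (r = 0.92), MSTRG.6682 and MSTRG.20929 (0.89 each), creld1.L and sept3 (0.88 each). None of these 5 was called between treatments. For MSTRG.27784 they were FAM46A and MSTRG.1814 (0.88 each), MSTRG.7665 (0.87), MSTRG.5837 (0.85) and FEZ1 (0.84), of which FAM46A and MSTRG.7665 were lower in Am580, with log2 fold changes of -1.26 and -1.47 (adjusted p = 7.38e-05 and 0.00207, edgeR quasi-likelihood). For MSTRG.6145 they were MSTRG.26868 (0.84), UGDH and MSTRG.5264 (0.82 each), MSTRG.4378 and grk4 (0.81 each). UGDH, which makes the sugar precursor of hyaluronan and other glycosaminoglycans, was higher, at 76.8 CPM in DMSO and 92.7 CPM in Am580, a fitted log2 ratio of 0.27 (SE 0.06, adjusted p = 0.00682, edgeR quasi-likelihood). The same measure between MSTRG.15066 and MSTRG.27784 was 0.734, and between either of them and MSTRG.6145 it was 0.330 and 0.0415. These are descriptions over shared libraries, picked as the highest of many genes. For MSTRG.27784 they rest in DMSO on 0 to 10 counts per library. Its own mean was below the 1 CPM asked of the other genes, at 0.0988 CPM in DMSO and 0.634 CPM in Am580. Some of the correlations were much weaker in 1 treatment. In DMSO and in Am580, r was 0.975 and 0.294 for FEZ1 with MSTRG.27784. It was 0.419 and 0.928 for UGDH with MSTRG.6145, and 0.468 and 0.975 for sept3 with MSTRG.15066. Others were high in both, such as arc3 with MSTRG.15066 (0.813 and 0.955) and grk4 with MSTRG.6145 (0.810 and 0.849).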

How the data were processed

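Reads were trimmed by the authors (Trimmomatic 0.36), mapped to the AmexG_v3.0.0 genome (HISAT2 2.1.0) and assembled (StringTie 1.3.4d). Pairs on the exons of each gene were then counted by strand (featureCounts, Subread 1.6.2). The options they state do not count pairs aligned to several places, which lowers near-identical loci. The deposited table holds these counts, without normalization. The deposited merged assembly gave positions in another unit, bases, and reference names. A normalized abundance table was not used. Protein match names are the study's.

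Counts were scaled with TMM in edgeR 4.0.16 (R 4.3.3). A gene needed 10 or more counts in 6 or more libraries to enter edgeR's legacy quasi-likelihood F test, which had no covariate, and was called at a Benjamini-Hochberg adjusted p under 0.05. SEs come from the F statistic, and log2 CPM used a prior count of 2. Correlations used exact permutation within a treatment. Named genes are the 3 loci, 5 neighbours a side, the called genes of the complement list, its other genes where a role has 5 or fewer, and the 5 genes of most similar pattern per locus. TNXB and AGPAT1 were named after their values were seen. Members and lists were chosen with earlier results of these data known. Symbols were matched to assembly names, so a gene under another name is missed. The alternatives were DESeq2 1.42.0 and its size factors, limma-voom (limma 3.58.1), upper-quartile and library-size scaling, no filter, filterByExpr, a replicate block and each library left out. The fits were tested on simulated data. No sequence was read.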

Additional observations from a re-analysis of the deposited data

Results flagged for a closer look

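Dixon's test on log2 values was run for the 3 loci, their tested neighbours and the tested genes of the complement list. It searched the 6 libraries of each treatment for a single library far from the others. Of 92 groups, 9 held one, and chance alone is expected to give about 1 in 20. None was among the 3 loci. For the ficolin neighbour MSTRG.6144, Am580 replicate 3 was high, at 14.8 CPM while the others had 6.60 to 8.90 CPM. For MSTRG.15065, beside the long C4 locus, Am580 replicate 5 was low, at 16.7 CPM against 24.0 to 28.3 CPM.

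The other 7 were genes of the complement list. CFD was low in DMSO replicate 6, at 0.401 CPM against 3.06 to 7.48 CPM, and high in Am580 replicate 3, at 3.65 CPM against 2.26 to 2.43 CPM. MASP1 was high in DMSO replicate 3, at 2.01 CPM against 0.591 to 0.925 CPM, and MASP2 (MSTRG.20233) was almost missing from DMSO replicate 1, at 0.0324 CPM against 4.84 to 12.6 CPM. DMSO replicate 3 also had a low level of MSTRG.15925, at 3.79 CPM against 12.5 to 23.2 CPM, and a high level of A2M (MSTRG.8789), at 5.00 CPM against 0.746 to 1.28 CPM. C5AR1 was high in Am580 replicate 6, at 6.16 CPM against 1.96 to 2.80 CPM, the library that was also highest for MSTRG.27784 and MSTRG.6145.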

How the results depend on the processing

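The log2 fold changes of the 3 loci moved by less than the spread between replicates in all 20 alternatives each, with ranges of 3.58 to 4.03, 2.34 to 3.18 and 2.19 to 2.58. The neighbours called higher numbered 5 to 7 with 1 library left out and 7 to 8 otherwise, and 0 were lower in any. Without an Am580 library MSTRG.15067 was not among those tested. The complement genes called higher numbered 4 to 8 with 1 library left out and 8 to 10 otherwise, the most with DESeq2. Over all genes, 1793 were called higher in the reported fit and 1457 to 1890 with 1 library left out. Otherwise they numbered 1635 to 2326, the most again with DESeq2, so these changes are not particular to the complement list. The replicate numbers do not pair the libraries (same-number correlations of deviations from -0.17 to 0.235, and 1 of 6 libraries matched its own number best). With a replicate block the complement genes called higher were 9, C1S became -0.14, MSTRG.15925 -0.0425 and the CD109 gene MSTRG.3634 -0.26. Under the block both CFP genes (MSTRG.12446, adjusted p = 0.0352, and MSTRG.12447, 0.0339) and MSTRG.15062 (0.0486) were called by edgeR, and C9 (0.0753) and MSTRG.6142 (0.0795) were not. With DESeq2 MSTRG.12446 (adjusted p = 0.0315), C2 (0.0473) and MSTRG.15062 (0.0369) were called, and with limma-voom MSTRG.12446 (0.00648). With limma-voom C1S became -0.18, MASP2 0.42 and MSTRG.15925 -0.0447. The genes that changed sign were not called in the reported fit. With library size as the only scaling, r of MSTRG.6145 with MSTRG.6144 in DMSO turned to -0.0199, and r of MSTRG.15066 with MSTRG.27784 in Am580 was 0.805 with an adjusted p of 0.0139 (exact permutation). This scaling moved the median log2 fold change of all genes to 0.0545 and gave 2145 higher and 1469 lower genes. With 1 library left out, the sign also turned for uncalled genes, with ranges of -0.21 to 0.38 for C1S, -0.0208 to 0.69 for C1R, -0.31 to 0.32 for MSTRG.15925, -0.13 to 0.32 for C5AR1, -0.36 to 0.053 for VTN, -0.63 to 0.44 for MSTRG.3634, -0.66 to 0.26 for A2M and -0.19 to 0.25 for MSTRG.6148. The cause was not tested. Depth limits MSTRG.27784 and MSTRG.15067 most, since DMSO levels of a few counts leave their fold changes imprecise.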
